A study of Arabidopsis thaliana with 114 samples.

Results

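GNC, CGA1 (also named GNL), GLK1 and GLK2 are 4 genes for transcription factors of greening in Arabidopsis thaliana. They were taken by their identifiers AT5G56860, AT4G26150, AT2G20570 and AT5G44190, and are 4 of the 28712 genes counted. RNA was sequenced from shoots and roots of seedlings in 114 libraries, 3 for each of 38 groups. One course followed 60 mM nitrogen (N), given as 20 mM KNO3 with 20 mM NH4NO3, and its control course followed 20 mM KCl, each at 9 times from 5 to 120 min. A group at time 0 received neither. All seedlings had been raised on 1 mM KNO3 with 1% sucrose, so the KCl and time 0 plants had been grown with nitrate as well. Ecotype and age are not given in the sources used here. No unit stands in the labels of time, which are taken to be in minutes, and nothing says that replicates were separate cultures. The p-values therefore measure the spread between samples. Whole organs were sequenced, so fewer cells of a type and less RNA per cell cannot be told apart.

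GNC and CGA1 encode GATA zinc finger factors of the class that ends in an LLM domain. They are known as paired genes that respond to nitrate, cytokinin and light, and that promote chlorophyll formation and chloroplast growth and division. GLK1 and GLK2 encode GARP-family factors that overlap in function and activate nuclear genes for chlorophyll synthesis and light-harvesting proteins. In roots of light-grown plants these factors are known to act at a low level, and raising them makes roots greener.

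Levels are given as CPM, the counts of a gene per 1e+06 counts of its library after TMM scaling. Each N effect is a log2 fold change of N over KCl from edgeR's quasi-likelihood test, called at a Benjamini-Hochberg adjusted p under 0.05 over all genes tested. Where N and KCl libraries are said to be apart or not to overlap, the share of all genes for which this held was not counted. Such statements describe the values and are not calls. One shoot library, KCl replicate 2 at 90 min, held 1302 gene counts and was left out, so that group has 2 libraries. Depth was 5710272 to 43570824 gene counts per library in the other shoots and 13878732 to 143269564 in roots. The summed level of 10 photosynthesis genes used as shoot markers was 2491 to 7705 CPM in shoots and 45.3 to 323.9 CPM in roots. The summed level of 10 root markers was 1.78 to 16.7 CPM in shoots and 143.0 to 821.6 CPM in roots, so the markers match the organ labels; 1 of the 10 root markers had a median of 0 in shoots. In shoots the share of reads outside any gene was 1.90% to 2.33% in N groups against 3.679% to 4.295% in KCl groups from 5 to 30 min. From 45 to 120 min it was 3.40% to 3.98% in N groups against 2.92% to 3.10% in KCl groups. Its part in the results below was not tested. The deposited sets of shoots each hold 1 treatment and replicate number, so set and treatment cannot be told apart in any shoot N effect.

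The 250 bases before the annotated start of the 3 genes with the clearest N effect in shoots are shown here, since 2 of them rose under N and the third fell. They were read from the RefSeq assembly TAIR10.1 on the strand of the gene. AGATT, a core motif of type-B response regulators, is in capitals on either strand, where its other strand reads AATCT.
GNC: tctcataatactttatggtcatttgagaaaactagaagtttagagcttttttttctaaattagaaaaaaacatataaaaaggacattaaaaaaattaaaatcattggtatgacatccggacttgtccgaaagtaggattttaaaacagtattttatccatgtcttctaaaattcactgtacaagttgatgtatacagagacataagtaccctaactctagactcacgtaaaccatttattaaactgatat
CGA1: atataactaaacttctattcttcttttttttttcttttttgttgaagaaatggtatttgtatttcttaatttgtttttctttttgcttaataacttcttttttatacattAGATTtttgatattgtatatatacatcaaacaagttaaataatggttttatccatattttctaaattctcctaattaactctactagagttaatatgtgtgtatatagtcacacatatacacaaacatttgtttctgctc
GLK2: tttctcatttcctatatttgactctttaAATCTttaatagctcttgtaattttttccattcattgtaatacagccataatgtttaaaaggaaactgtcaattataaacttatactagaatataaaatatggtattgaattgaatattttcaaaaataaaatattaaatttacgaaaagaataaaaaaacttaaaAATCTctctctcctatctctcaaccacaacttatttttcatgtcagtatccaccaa
The GNC window lies at chr5:22991531-22991780 on the minus strand, the CGA1 window at chr4:13252834-13253083 and the GLK2 window at chr5:17798012-17798261, both on the plus strand. CGA1 held AGATT once, beginning 140 bases before the start, GLK2 held it on the other strand at 222 and 56 bases before the start, and GNC did not hold it. The motif is common, since 63.7% of 27437 such windows held it on either strand. GATAAG, the site of GATA factors, was found in none of these 3 windows and in 12.3% of all windows. The GLK1 window held GATAAG once, on the other strand from 49 bases before its start. The G-box CACGTG and the CCAATC element were in none of the 4 windows, against 6.49% and 10.2% of all windows.

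All 4 genes were shoot genes. At time 0, GNC had 29.1, 27.1 and 32.4 CPM in shoots against 0.0179, 0.0499 and 0.0106 CPM in roots. CGA1 had 12.3, 16.0 and 16.1 CPM in shoots against 0.0298, 0.0166 and 0.0425 CPM in roots. GLK1 had 112.7, 101.4 and 121.8 CPM in shoots against 0.458, 0.183 and 0.393 CPM in roots. At time 0 every shoot library of these 3 genes lay far above every root library, and the same held for GLK2. GLK2 had 54.7, 44.9 and 61.7 CPM in shoots against 0.435, 0.798 and 0.882 CPM in roots. The log2 fold changes of shoot over root were 9.80 ± 0.56 (SE) for GNC, 8.68 ± 0.54 for CGA1, 8.18 ± 0.74 for GLK1 and 6.15 ± 0.37 for GLK2, all called, where 36.1% of genes tested were called higher in shoots. The largest of the 4 adjusted p-values was 4.34e-17, for GLK1, by edgeR's quasi-likelihood test. Shoot and root files also differ in how reads that align in several places are listed, so organ and processing cannot be told apart in a level. Per kilobase of exon in shoots at time 0, GLK1 stood at 64.7 ± 5.89 CPM per kb (SD, n = 3), GLK2 at 31.0 ± 4.89, GNC at 16.5 ± 1.51 and CGA1 at 9.06 ± 1.33. Each of these 4 ranges was apart from its neighbour, so before treatment the GLK genes were the more abundant pair.

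**Figure D1:**
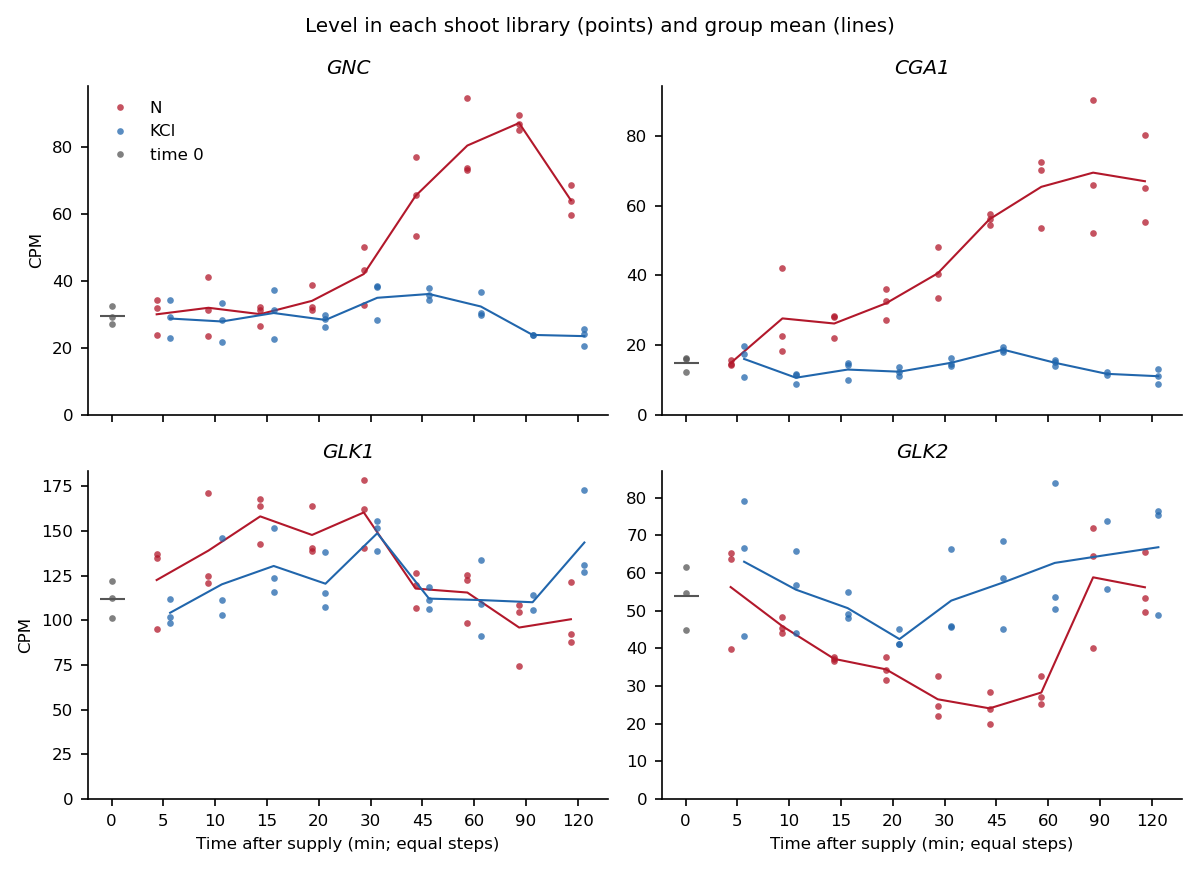
Level (CPM) of the 4 genes in every shoot library, with time after supply on the horizontal axis in equal steps; points are libraries, lines join the means of the N (red) and KCl (blue) groups, and the grey mark is time 0. All N libraries lie above all KCl libraries of the same time from 10 min on for CGA1, and at 20 min and from 45 min on for GNC. GLK2 dips under N to a mean of 24.1 CPM at 45 min, and GLK1 has overlapping N and KCl libraries at 7 of 9 times.

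CGA1 rose under N in shoots at 8 of the 9 times, beginning at 10 min. At 5 min it had 14.4, 15.8 and 14.2 CPM in N shoots against 19.7, 17.5 and 10.8 CPM in KCl shoots, and the groups overlapped, at a time when 0.0574% of genes were called. At 10 min it had 22.7, 18.1 and 42.1 CPM in N shoots against 11.2, 11.6 and 8.90 CPM in KCl shoots. All 3 N libraries lay above all 3 KCl libraries, although N replicate 3 was far above the other two. The log2 fold change was 1.38 ± 0.22 (SE), with an adjusted p of 5.92e-05 in edgeR's quasi-likelihood test, at a time when 0.890% of genes tested were called. With the spread taken from those 6 libraries alone the adjusted p was 0.178. At 15 min the log2 fold change was 1.03 ± 0.22, with an adjusted p of 0.00338, and it was 0.1185 without KCl replicate 2, where 1.77% of genes were called. At 20 and 30 min the log2 fold changes were 1.38 ± 0.22 and 1.45 ± 0.22, where 3.11% and 6.72% of genes were called.

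The difference in CGA1 then widened. At 60 min the gene had 53.5, 72.5 and 70.2 CPM in N shoots against 15.1, 15.7 and 13.9 CPM in KCl shoots. At 120 min it had 55.5, 65.2 and 80.5 CPM in N shoots against 13.2, 8.77 and 11.1 CPM in KCl shoots. The groups were apart at each of the 8 times from 10 min on, and the KCl libraries never exceeded 19.7 CPM at any time. The log2 fold change was 1.59 ± 0.21 at 45 min and 2.13 ± 0.22 at 60 min. It was 2.57 ± 0.26 at 90 min, and 2.61 ± 0.22, a 6.10-fold difference, at 120 min. Over all times the adjusted p was 7.82e-19 in edgeR's quasi-likelihood test, with 47.4% of genes called, and the N effect differed among times with an adjusted p of 3.30e-08, where 30.9% of genes were called. Among the 19 shoot group means, the 3 N groups at 15, 10 and 20 min and that at 30 min formed a step above every KCl group, and the 4 N groups from 45 min on formed a second step. Neighbouring groups within each step overlapped in their libraries. The first step was above the KCl groups in means only. Its lowest library, at 10 min, had 18.1 CPM, against 19.7 and 19.5 CPM in the highest KCl libraries at 5 and 45 min.

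GNC followed later and to a lesser degree. From 5 to 30 min its adjusted p was 0.469 or more in edgeR's quasi-likelihood test, and its log2 fold changes lay between -0.03 and 0.27. At 20 min it had 38.7, 31.3 and 32.0 CPM in N shoots against 26.3, 28.7 and 29.9 CPM in KCl shoots, with no overlap but an adjusted p of 0.567. At 30 min it had 50.1, 32.9 and 43.1 CPM in N shoots against 28.2, 38.1 and 38.5 CPM in KCl shoots, which overlap. At 45 min it had 53.5, 65.7 and 77.0 CPM in N shoots against 38.0, 35.9 and 34.4 CPM in KCl shoots. All N libraries lay above all KCl libraries, as at each later time, with a log2 fold change of 0.86 ± 0.18 and an adjusted p of 3.11e-04, at a time when 25.0% of genes were called. At 90 min it had 85.1, 89.7 and 86.8 CPM in N shoots against 23.8 and 23.9 CPM in the 2 KCl libraries. That was its largest difference, a log2 fold change of 1.87 ± 0.21, or 3.66-fold, with an adjusted p of 1.65e-09, where 37.3% of genes were called. At 120 min GNC had 59.8, 63.7 and 68.8 CPM in N shoots against 24.2, 20.6 and 25.6 CPM in KCl shoots. The log2 fold change there was 1.45 ± 0.18, where 36.9% of genes were called, and at 60 min it was 1.32 ± 0.18, where 26.3% were called. The N effect on GNC differed among times with an adjusted p of 4.10e-08. In the order of its 19 shoot group means, the 4 N groups from 45 to 120 min stood on top with overlapping libraries, and a gap in the libraries separated them from the N group at 30 min, the next below.

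Whether N moved the GATA pair to the same degree was tested as the log2 ratio of GNC to CGA1 within each library, which does not depend on library size. The later first call of GNC was not itself tested against that of CGA1. The ratio was computed from CPM + 0.5 and tested by an exact two-sided permutation of N and KCl labels within each time. From 45 to 120 min the N minus KCl difference of the log2 ratio was -0.82, with an adjusted p of 1e-04 over 4 such tests. At 120 min the log2 ratio was -0.05 ± 0.17 (SD, n = 3) in N shoots against 1.07 ± 0.19 (n = 3) in KCl shoots, so under N both genes stood at like levels. From 10 to 30 min, a window chosen after the time courses were seen, the difference was -1.08 with an exact permutation p of 1.25e-05, the smallest this test can give. CGA1 thus moved more than GNC from 45 to 120 min. Values from 10 to 30 min went the same way, but that p is a description, since the window was taken from the same data.

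**Figure D2:**
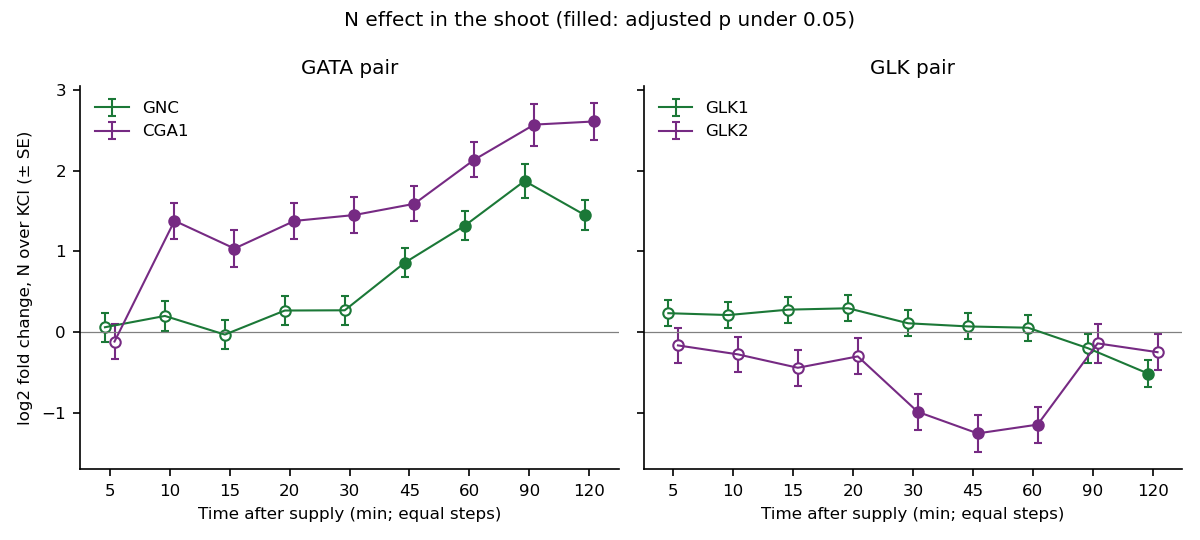
Log2 fold change of N over KCl with its standard error at each time in shoots, for the GATA pair (left) and the GLK pair (right); filled points have an adjusted p under 0.05. CGA1 is filled at 8 times and GNC at 4 times, both above 0, while GLK2 is filled below 0 at 30, 45 and 60 min and GLK1 at 120 min.

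GLK2 fell under N in shoots for part of the course. At 15 min it had 36.7, 37.2 and 37.7 CPM in N shoots against 55.0, 48.0 and 49.1 CPM in KCl shoots, with no overlap but an adjusted p of 0.4545, or of 0.0312 with the spread taken from those libraries alone. At 30 min it had 32.8, 22.0 and 24.7 CPM in N shoots against 45.6, 66.3 and 46.0 CPM in KCl shoots. At 45 min it had 20.0, 23.8 and 28.4 CPM in N shoots against 45.0, 68.6 and 58.7 CPM in KCl shoots. Every N library lay below every KCl library at 15, 20, 30, 45 and 60 min, although at 20 min the adjusted p was 0.6205 in edgeR's quasi-likelihood test. At 60 min the values were 32.6, 27.1 and 25.2 CPM in N shoots against 84.0, 50.4 and 53.6 CPM in KCl shoots. The log2 fold changes were -0.99 ± 0.23 (adjusted p 0.00257), -1.26 ± 0.23 (4.28e-05) and -1.15 ± 0.22 (9.77e-05) at 30, 45 and 60 min in edgeR's quasi-likelihood test. Without N replicate 3 the adjusted p at 30 min was 0.0535. At 45 min GLK2 under N was at 0.419 times its KCl level. The summed level of the 10 photosynthesis markers was also lower under N at 15 min, with 3655 to 4102 CPM in N shoots against 5533 to 6637 CPM in KCl shoots, and at 30 min, with 3977 to 5422 CPM against 5718 to 7705 CPM. None of the 10 was called at either time, and their part in the result was not tested. The sums overlapped at 45 min, with 3979 to 5658 CPM in N shoots against 4435 to 5019 CPM in KCl shoots, and at 60 min, with 3995 to 4575 CPM against 3301 to 6043 CPM.

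The difference in GLK2 was no longer detected at the last times. At 90 min it had 72.0, 40.1 and 64.4 CPM in N shoots against 55.8 and 73.8 CPM in KCl shoots. At 120 min it had 65.6, 49.6 and 53.4 CPM in N shoots against 75.3, 48.7 and 76.5 CPM in KCl shoots. The groups overlapped at both times, and the log2 fold changes were -0.14 (95% interval -0.62 to 0.34) and -0.25 (-0.68 to 0.18). Over all times the adjusted p was 7.85e-07 in edgeR's quasi-likelihood test. The N effect differed among times with an adjusted p of 0.00735, but of 0.0739 without N replicate 3. In the order of group means, the N groups at 45, 30, 60, 20 and 15 min were the 5 lowest, and a gap in the libraries separated them from all other groups.

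GLK1, the most abundant of the 4, was not called over the course as a whole in shoots. At 20 min it had 163.7, 138.8 and 140.6 CPM in N shoots against 107.6, 115.5 and 138.3 CPM in KCl shoots. Those groups did not overlap, though by little, and the log2 fold change of 0.29 ± 0.16 had an adjusted p of 0.435. At 45 min, when GLK2 was lowest, GLK1 had 106.9, 120.0 and 126.3 CPM in N shoots against 111.5, 106.1 and 118.8 CPM in KCl shoots. The 95% interval of its log2 fold change there ran from -0.25 to 0.39. At 120 min GLK1 had 121.4, 92.3 and 88.0 CPM in N shoots against 126.8, 130.8 and 172.9 CPM in KCl shoots. All N libraries lay below all KCl libraries, with a log2 fold change of -0.51 ± 0.16 and an adjusted p of 0.0107. That call was lost without N replicate 2, N replicate 3 or KCl replicate 3, with adjusted p-values up to 0.102. Over all times the adjusted p was 0.0514 by edgeR's quasi-likelihood test, just above the threshold, and it fell below it in 6 of 12 alternative analyses. No pair of neighbours in the order of its 19 shoot group means was apart.

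The GLK pair was compared by the same within-library ratio. The log2 ratio of GLK1 to GLK2 at 45 min was 2.28 ± 0.13 (SD, n = 3) in N shoots against 0.98 ± 0.34 (n = 3) in KCl shoots. At 120 min it was 0.83 ± 0.10 in N shoots against 1.11 ± 0.34 in KCl shoots. The balance between the GLK genes thus tilted to GLK1 under N at 45 min and not at 120 min. Averaged from 45 to 120 min the N minus KCl difference was 0.53, with an adjusted exact permutation p of 0.0214. It was 0.0663 without N replicate 2 and 0.0730 without KCl replicate 3. From 10 to 30 min, the window chosen after the courses were seen, the difference was 0.72 with an exact permutation p of 1.25e-05, the smallest the test can give. That p is a description as well.

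In the KCl course of shoots none of the 4 genes was called against time 0 at any time, where 8.75% of genes were called. The adjusted p-values were 0.0978 for CGA1, 0.166 for GNC, 0.191 for GLK1 and 0.441 for GLK2 by edgeR's quasi-likelihood test. GLK1 had its highest KCl mean, 148.7 ± 8.62 CPM (SD, n = 3), at 30 min, against 112.0 ± 10.2 CPM at time 0.

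In roots GNC and CGA1 were close to the limit of detection, with 226 and 183 counts over all 57 libraries. GNC ranged from 0 to 1.07 CPM in N roots, with a median of 0.0533, and from 0 to 0.395 CPM in KCl roots, with a median of 0.0662. The highest value of both GNC and CGA1 was in the same library, N replicate 1 at 45 min, with 29 counts of each gene. CGA1 had no count in any of the 6 root libraries at 10 min, which allows up to 0.0942 to 0.116 CPM in N libraries and 0.0807 to 0.115 CPM in KCl libraries for a limit of 3 counts. The N and KCl libraries of both genes overlapped at all 9 times. Their adjusted p-values over all times were 0.798 for GNC and 0.364 for CGA1 in edgeR's quasi-likelihood test, where 61.0% of genes tested in roots were called. The 95% intervals at 120 min ran from -3.08 to 1.73 for GNC and from -1.65 to 3.99 for CGA1 on the log2 scale, and so include changes as large as those in shoots. An N effect in roots was thus not detectable at this depth for either gene. A difference between organs in the N effect was not called by edgeR for CGA1 (adjusted p 0.106) or GNC (0.313), where 36.0% of genes were called. For CGA1 it was called in DESeq2 (adjusted p 4.93e-04), there with the larger N effect in roots. Without replicate 3 of every group edgeR called it for CGA1 (0.0476) and GNC (0.0146). At its time of smallest p the shoot minus root value of CGA1 ran from -4.80 to 0.70 over 10 alternatives, so its direction was not stable. The root side of that value rests on few counts.

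GLK2 ranged from 0.176 to 2.32 CPM in N roots and from 0.471 to 2.14 CPM in KCl roots. At 60 min it had 0.355, 0.371 and 0.744 CPM in N roots against 1.49, 1.18 and 0.886 CPM in KCl roots. All N libraries lay below all KCl libraries there, the only time this held in roots for GLK2. The log2 fold change of -1.301 ± 0.536 had an adjusted p of 0.0652 in edgeR's test and of 0.0471 in DESeq2, at a time when 27.0% of genes were called. In shoots the value at 60 min was -1.15, and the difference between organs was 0.19 with a 95% interval from -0.86 to 1.25. In the KCl course, GLK2 was called higher than at time 0 at 10 and 15 min, with log2 fold changes of 1.14 ± 0.48 and 1.21 ± 0.49, where 72.9% and 68.7% of genes were called. Over that course as a whole it was not called in edgeR's quasi-likelihood test (adjusted p 0.224).

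GLK1 in roots stayed between 0.161 and 5.82 CPM in 56 of 57 libraries. The remaining one, KCl replicate 2 at 60 min, had 64.9 CPM from 986 counts, against 2.05 and 0.360 CPM in the other KCl libraries and 0.533, 0.247 and 1.08 CPM in N libraries of that time. In that library GNC had 0.395, CGA1 0.132 and GLK2 1.18 CPM, its summed shoot markers were 106.1 CPM, in 24th place among root libraries, and its summed root markers were 232.2 CPM. It was also the shallowest root library, with 13878732 gene counts. Reads outside any gene made up 4.47% there, against 1.33% and 1.04% in KCl replicates 1 and 3 of that time and at most 7.31% in roots. Organelle genes held 1.25% of its gene counts, against 0.214% and 0.315% in those replicates. With that library, GLK1 was called over all times (adjusted p 0.00380), where 31.7% of genes were called lower, and at 60 min (log2 fold change -5.19 ± 1.02). It was also called for an N effect that differed among times (adjusted p 0.00767), where 40.2% of genes were called, and for an N effect that differed between organs (adjusted p 7.59e-04). Without it, the adjusted p over all times was 0.186, between organs 0.233, for the difference among times it was 0.180, and at 60 min the log2 fold change was -0.999 with an adjusted p of 0.404. Against time 0 in the KCl course, where 89.3% of genes were called, the adjusted p of GLK1 was 3.70e-09 with the library and 0.271 without it. At 60 min alone, where 42.4% of genes were called, its log2 fold change over time 0 was 5.99 ± 1.02 with the library. The value in that library thus carried each of the calls for which both analyses are given here, and its source was not tested. In the fit with that library, GLK1 was also called higher in KCl roots at 10 min than at time 0, with a log2 fold change of 2.02 ± 0.93 and an adjusted p of 0.0474. At 120 min it had 0.297, 0.161 and 0.267 CPM in N roots against 0.356, 1.58 and 0.409 CPM in KCl roots, with no overlap but an adjusted p of 0.1995 in edgeR's quasi-likelihood test.

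**Figure D3:**
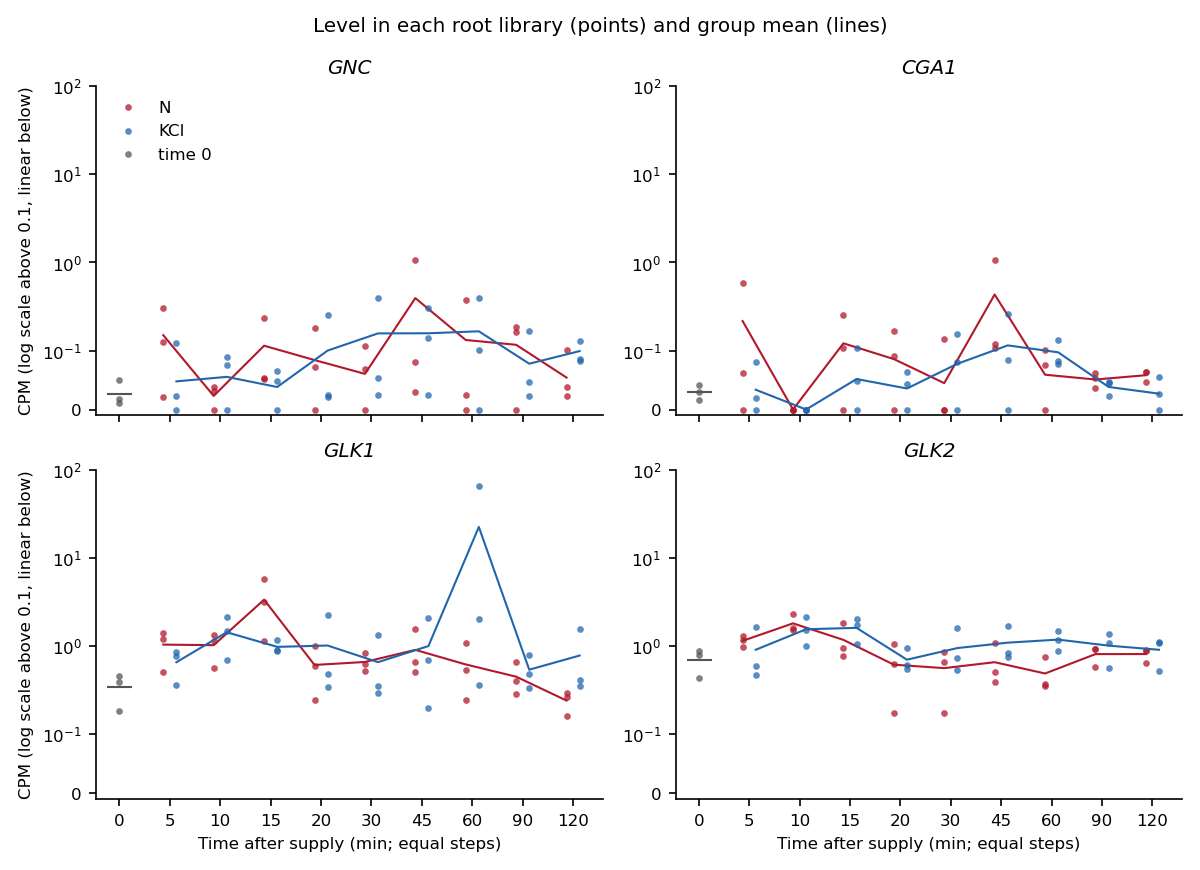
Level (CPM) of the 4 genes in every root library, with time after supply in equal steps; the vertical axis is logarithmic above 0.1 CPM and linear below. One KCl library at 60 min holds 64.9 CPM of GLK1, and all other values of the 4 genes are at or below 5.82 CPM.

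The next highest root values of GLK1 were in N replicates 2 and 1 at 15 min. GLK1 had 3.14, 5.82 and 1.13 CPM in the N libraries of that time against 0.894, 0.875 and 1.17 CPM in KCl libraries, which overlap. The log2 fold change was 1.77 ± 0.94, with an adjusted p of 0.165, or of 0.0208 with the spread taken from those libraries alone. The summed shoot markers of those N libraries were 221.4, 323.9 and 156.5 CPM, against 147.5, 123.4 and 153.4 CPM in the KCl libraries of that time. At that time the N libraries with the most GLK1 were thus also those with the most of these photosynthesis transcripts, and the part of that level in the result was not tested. The summed root markers were lower under N at that time, with 340.6 to 401.6 CPM against 557.5 to 821.6 CPM under KCl. Reads outside any gene made up 4.86% in N replicate 2, against 1.575% and 1.29% in N replicates 1 and 3, and 7.31% in KCl replicate 2. The part of these differences was not tested either. Over the 19 root groups, with the library of 64.9 CPM left out, the genes with a mean of at least 5 CPM most like GLK1 were PSAL (Pearson r = 0.897), RBCS1A (0.894), LHCA1 (0.893), CAB1 (0.888) and LHCB4.2 (0.874), which encode parts of the photosystems, their antennae and Rubisco. The groups share libraries and scaling, so these values are descriptions.

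**Figure D4:**
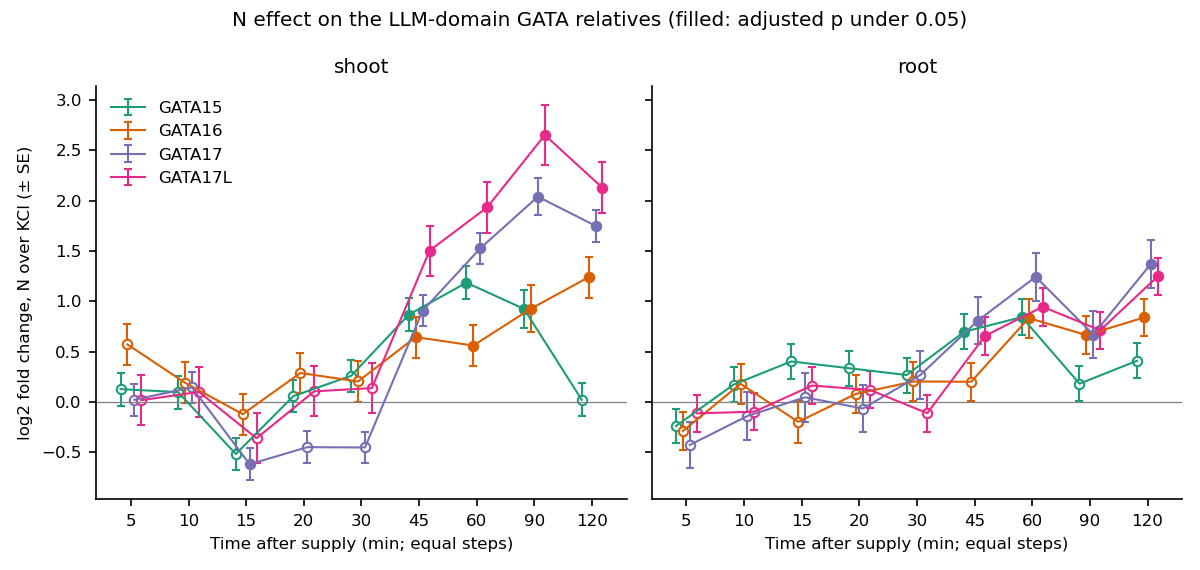
Log2 fold change of N over KCl with its standard error at each time for GATA15, GATA16, GATA17 and GATA17L in shoots (left) and roots (right); filled points have an adjusted p under 0.05. All filled points from 45 min on lie above 0 in both organs, and the highest is 2.65 for GATA17L in shoots at 90 min.

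The LLM domain is shared by 4 further GATA genes, GATA15, GATA16, GATA17 and GATA17L, which are known to act together with GNC and CGA1. All 4 rose under N over the course in both organs by edgeR's quasi-likelihood test, where 23.7% of genes tested in shoots and 29.3% in roots were called higher. In shoots GATA17L had 81.6 ± 2.03 CPM (SD, n = 3) under N against 13.0 ± 5.23 CPM (n = 2) under KCl at 90 min, a log2 fold change of 2.65 ± 0.30 (SE). GATA17 had 55.5 ± 5.01 CPM under N against 13.5 ± 1.93 CPM under KCl at that time, a log2 fold change of 2.04 ± 0.18. GATA15 was highest relative to KCl at 60 min, with a log2 fold change of 1.19 ± 0.16, and was at 0.02 ± 0.16 at 120 min. GATA16 had its largest value, 1.24 ± 0.20, at 120 min. All 4 were first called higher at 45 min, as GNC was, while GATA17 was called lower at 15 min (-0.62 ± 0.16, adjusted p 0.0245). Of all genes tested in shoots, 1.77% were called at 15 min, 6.72% at 30 min and 25.0% at 45 min, so calls became more common at 45 min in general.

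Unlike GNC and CGA1, these relatives were well measured in roots. At time 0 their levels were lower in shoots than in roots, with log2 fold changes of shoot over root from -0.58 ± 0.20 for GATA17 to -1.44 ± 0.22 for GATA17L. That direction was common, since 9870 of 22757 genes tested were called lower in shoots at time 0. In roots at 120 min GATA17L had 68.4 ± 4.75 CPM under N against 28.7 ± 8.87 CPM under KCl (SD, n = 3 each), a log2 fold change of 1.25 ± 0.19. GATA17 had 38.0 ± 0.70 CPM under N against 14.7 ± 3.95 CPM under KCl, a log2 fold change of 1.37 ± 0.24. Calls in roots also began at 45 min, for GATA15, GATA17 and GATA17L, and at 60 min for GATA16. The N effect differed between shoot and root for GATA17L (adjusted p 2.29e-06), GATA17 (9.60e-04) and GATA15 (0.00349) in edgeR's quasi-likelihood test, and was not called to differ for GATA16 (0.126).

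Of 25 genes known as regulators or partners of the GATA and GLK factors, 4 rose and 13 fell over the course in shoots, 68.0% against 47.4% of all genes tested. In roots 8 rose and 10 fell, 72.0% against 61.0% of all genes. HYH, a bZIP factor that is the close relative of HY5 in light signalling, had 126.1 ± 20.3 CPM under N against 24.1 ± 4.09 CPM under KCl in shoots at 60 min (SD, n = 3 each). In roots at that time it had 108.9 ± 18.2 CPM under N against 26.9 ± 3.52 CPM under KCl. The log2 fold changes of HYH were 2.38 ± 0.20 in shoots and 2.02 ± 0.14 in roots. ORE1, a NAC factor of leaf senescence known to bind the GLK proteins, fell in shoots, with 11.6 ± 1.61 CPM under N against 78.8 ± 23.5 CPM under KCl at 45 min and a log2 fold change of -2.76 ± 0.31. BES1, a brassinosteroid factor, fell in shoots, with a log2 fold change of -0.85 ± 0.13 at 60 min. AT5G02580 fell in shoots to 1.71 ± 0.25 CPM under N at 120 min, against 37.7 ± 6.23 CPM under KCl.

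In roots the other regulators with the smallest p were BZR1, the close relative of BES1, the type-B response regulator ARR10, which takes part in the cytokinin response, and the DELLA protein gene RGA. BZR1 fell, with a log2 fold change of -0.57 ± 0.10 at 120 min, with 25.66 ± 1.196 CPM under N against 38.2 ± 1.69 CPM under KCl (SD, n = 3 each). ARR10 fell, with -0.75 ± 0.15 at 60 min, with 50.5 ± 6.20 CPM under N against 85.2 ± 9.25 CPM under KCl. RGA rose, with 0.62 ± 0.09 at 90 min, with 101.5 ± 3.48 CPM under N against 65.9 ± 4.43 CPM under KCl.

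Of 26 chlorophyll synthesis genes, a group that these factors are known to act on, 3 rose and 2 fell in shoots, 19.2% against 47.4% of all genes tested. GSA1, which acts early in the pathway, had 134.0 ± 7.24 CPM under N (SD, n = 3) against 96.9 ± 1.55 CPM under KCl (n = 2) at 90 min, a log2 fold change of 0.47 ± 0.10. HEMF1, of a later step before the branch to chlorophyll, had a log2 fold change of 0.46 ± 0.12 at 90 min. PPOX1, the next enzyme, had one of -0.35 ± 0.11 at 45 min. GUN5, a subunit of the magnesium chelatase, was called over the course and had its smallest p at 15 min, where the log2 fold change was -0.57 ± 0.21 and the adjusted p for that time alone 0.232.

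Of 20 light-harvesting antenna genes, none rose and 5 fell in shoots, 25.0% against 47.4% of all genes. LHCB1.5, an antenna protein of photosystem II, had 1487 ± 293.3 CPM under N against 2580 ± 439.3 CPM under KCl at 120 min (SD, n = 3 each), a log2 fold change of -0.80 ± 0.21. LHCB1.4 had a log2 fold change of -1.26 ± 0.35, and LHCB2.1 one of -0.75 ± 0.26, at the same time. LHCA5, a minor antenna protein of photosystem I, had one of -0.54 ± 0.16 at 30 min. The LHCB1 and LHCB2 genes have near-identical copies among which reads can be split or lost. At 120 min the median log2 fold change of the 20 antenna genes was -0.54, against -0.03 for all genes and -0.35 for the 10 shoot markers, while at 90 min it was -0.02. It was -0.70 at 15 min, when none of the 20 was called, and -0.49 at 30 min, when 1 was called, against -0.65 and -0.46 for the shoot markers at those times.

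Among 10 plastid division genes, 3 rose and 2 fell in shoots, 50.0% against 47.4% of all genes, and 6 rose and 2 fell in roots, 80.0% against 61.0%. PDV1, an outer envelope protein of the division machinery, had 32.5 ± 4.96 CPM under N against 17.7 ± 1.59 CPM under KCl in shoots at 45 min, a log2 fold change of 0.88 ± 0.10 (SE). In roots PDV1 had a log2 fold change of 0.85 ± 0.18 at 60 min, and its partner PDV2 one of 1.204 ± 0.196 at 120 min. MIND1, which places the division site, rose in both organs, with 0.67 ± 0.11 in shoots at 90 min and 0.43 ± 0.11 in roots at 20 min. FTSZ1-1, of the inner ring, rose in shoots by 0.61 ± 0.16 at 90 min, and ARC5, a dynamin of the outer ring, fell there by 0.48 at 120 min. FTSZ2-2 fell in roots, with -0.59 ± 0.14 at 120 min.

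Of 6 sigma factors, which guide the plastid RNA polymerase, SIG1 and SIG5 fell in shoots, 33.3% against 47.4% of all genes. SIG5 had 36.4 ± 5.81 CPM under N against 62.9 ± 9.33 CPM under KCl at 60 min (SD, n = 3 each), a log2 fold change of -0.79 ± 0.16. SIG1 had its smallest p in shoots at 30 min, with a log2 fold change of -0.49 ± 0.19, where its adjusted p at that time alone was 0.124. In roots SIG5 rose, with a log2 fold change of 0.67 ± 0.19 at 120 min, and SIG1 fell, with -0.36 ± 0.10. These were 2 of the 5 tested there, 40.0% against 61.0% of all genes.

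In roots 7 of 26 chlorophyll synthesis genes rose and 8 fell, 57.7% against 61.0% of all genes. DVR, a reductase of the pathway, rose by 1.18 ± 0.24 at 60 min, HEMF1 by 0.48 ± 0.13 and FLU, a negative regulator of the pathway, by 0.55 ± 0.15 at 120 min, while CHLP, which makes the phytol tail, fell with -0.80 ± 0.24 at 60 min, on the log2 scale. Of 20 antenna genes 3 rose and 4 fell, 35.0% against 61.0%. Their median N effect in roots was 1.00 at 15 min and -1.05 at 60 min, against -0.08 and 0.01 for all genes, and that of the 10 shoot markers was 0.74 and -0.84 at those times. LHCB1.5 fell with -1.63 ± 0.32 at 60 min, with 22.4 ± 6.43 CPM under N against 69.2 ± 21.5 CPM under KCl, and LHCA1 rose by 1.19 ± 0.38 at 15 min. The antenna genes and the shoot markers thus moved with each other in roots, and whether shoot tissue in some root libraries took part was not tested.

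**Figure D5:**
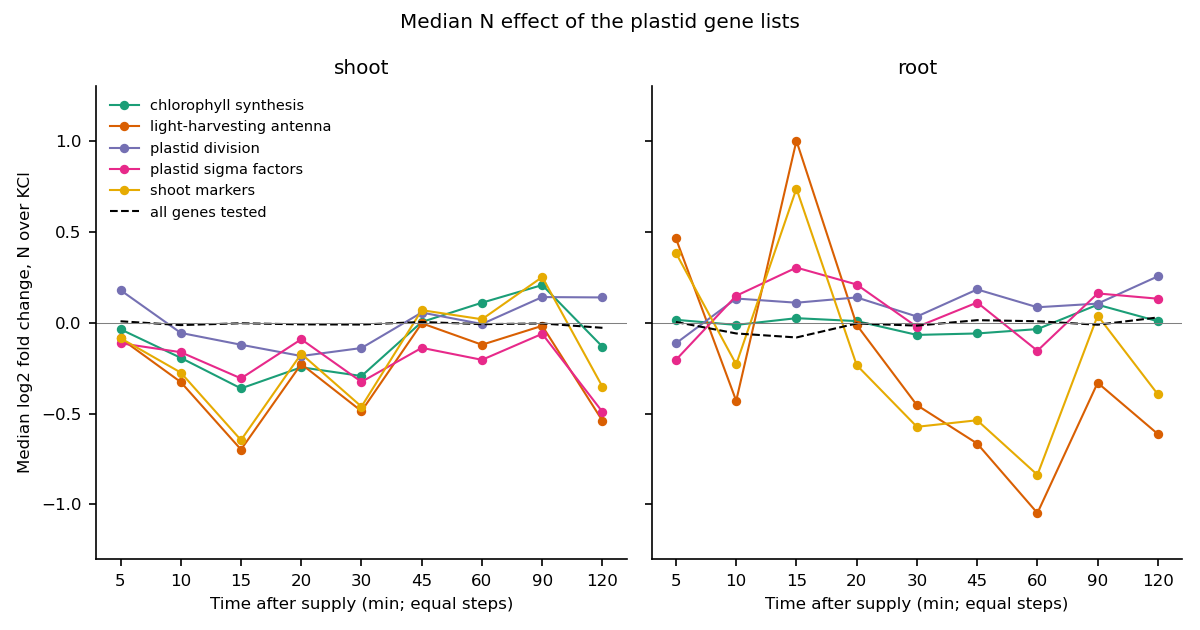
Median log2 fold change of N over KCl at each time for 4 lists of plastid genes, for the 10 shoot markers and for all genes tested (dashed), in shoots (left) and roots (right). In roots the antenna genes and the shoot markers share a peak at 15 min, 1.00 and 0.74, and a low at 60 min, -1.05 and -0.84.

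Over the 19 shoot groups GNC and CGA1 had like patterns, and GLK1 and GLK2 did not. The Pearson r of mean log2(CPM + 0.5) was 0.918 between GNC and CGA1, against -0.422 between GLK1 and GLK2 and -0.586 between CGA1 and GLK2. Among the 15719 genes compared, those most like CGA1 were RFNR1 (r = 0.982), PRS2 (0.98), MDH (0.978), AT2G41440 (0.978) and AT2G36580 (0.977). RFNR1 encodes the root-type ferredoxin-NADP reductase, PRS2 a phosphoribosyl pyrophosphate synthase and MDH the plastid NAD-dependent malate dehydrogenase. Those most like GNC were AT1G52905 (0.959), SCL30A (0.959), a splicing factor, AT3G03040 (0.958), AT5G41020 (0.957) and AFP1 (0.957). For GLK2 they were AT5G39080 (0.955), AT3G22970 (0.935), AT5G38510 (0.916), ACL (0.911) and RTFL8 (0.909). GLK1 had no gene as close, and its most like were AT5G18470 (0.886) and SCL13 (0.818). The 19 groups share libraries and scaling, and these values are descriptions.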

How the data were processed

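Each library has 1 deposited table of whole-number counts, with 28712 genes. The submitters' processing notes name TopHat2 (version 2), limma, HTSeq and the build TAIR10 without their roles, and the strand setting of the counting is not given in the sources used here. The counts entered edgeR 4.0.16 (R 4.3.3) unchanged, with filterByExpr (minimum count 10, minimum total 15), TMM scaling and 1 mean per group, 1 fit per organ and 1 of both organs for differences between organs. Lines naming no gene were left out. A change over the course is 1 F-test over the 9 contrasts, with its direction taken at the time of smallest p, where group values are given. Groups come from sample titles, since treatment tags are missing or name KNO3 alone for some samples, and 1 source name contradicts its title. In shoots the deposited sets each hold 1 treatment and replicate number, so set and treatment cannot be told apart. At 5 min 0.0574% of genes were called there, and the part of the set at any time was not tested. The 4 genes and all lists were chosen with earlier results of these data known. From each list the genes named are up to 4 with the smallest p per organ, and for likeness the 5 with the highest r. Symbols come from RefSeq, with 28007 identifiers matched. No amino acid sequence was used here. The tests were checked on simulated data. Alternatives were DESeq2 1.42.0, limma 3.58.1 (voom), other scaling and filtering, a replicate block, the spread of the compared libraries alone, and leaving out replicates.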

Additional observations from a re-analysis of the deposited data

Results flagged for a closer look

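The N effect on GLK1 differed between organs over the course, with an adjusted p of 0.000759 in the combined edgeR fit of shoots and roots. At 60 min the log2 fold change of N over KCl was 0.05 in shoots and -5.19 in roots, a difference of 5.22 ± 0.89 (SE). It rests on the root library KCl replicate 2 at 60 min, which had 64.9 CPM of GLK1. Without that library the adjusted p was 0.233, and without replicate 2 of every group it was 0.454. The source of that value was not tested.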

How the results depend on the processing

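No result changed direction while called. The N effects on CGA1, GNC and GLK2 over the course in shoots, the shoot excess of all 4 genes at time 0 and the shift of the GNC to CGA1 ratio kept their calls under every alternative run for them. Values for a course are log2 fold changes at its time of smallest p.

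For GLK1 in shoots over the course, an adjusted p under the threshold came with DESeq2's size factors in edgeR (-0.4957), with no filter on low counts (-0.5074), in DESeq2 (-0.4959) and with a replicate block (-0.5036, adjusted p 0.0313), and leave-one-out values ran from -0.6678 to -0.3578. The adjusted p for its difference among times was 0.0453 with the block and 0.0313 in DESeq2, and leave-one-out values ran from 0.0134 to 0.2437. For GLK2 in shoots that p ran from 0.0126 to 0.0739.

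Same-numbered samples deviated together (r over 0.1) in 7 of 24 shoot pairs and 11 of 27 root pairs, so the numbers were not taken to pair samples. The replicate block also took the GLK1 to GLK2 ratio from 45 to 120 min in shoots to 0.51 with an adjusted p of 0.111. Leave-one-out values of that ratio ran from 0.50 to 0.56.

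For GLK1 in roots, leave-one-out values over the course ran from -5.84 to -0.998, against time 0 in KCl roots from 1.80 to 6.57, and for the adjusted p of the difference among times from 8.26e-04 to 0.180. In limma's voom these were -2.09, 2.72 and 0.566, none called. GLK2 in KCl roots against time 0 was called in voom (1.33) and CGA1 in KCl shoots against time 0 in DESeq2 (-0.48).

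Differences between organs in the N effect are given as shoot minus root. The difference was called for CGA1 in DESeq2 (-2.81, adjusted p 4.93e-04), with the larger effect in roots. It was not called for GLK1 in voom (2.05). Without 1 replicate number of every group, values ran from 1.53 to 2.95 for GNC, from -4.80 to 0.70 for CGA1 and from 0.81 to 6.15 for GLK1. Without replicate 3 GNC and CGA1 were called, with adjusted p-values of 0.0146 and 0.0476.

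Of all genes, 1828 were called in KCl shoots against time 0, with 742 to 1667 in leave-one-out fits and 3087 in DESeq2. The N effect differed among times in roots for 8912 genes, with 3809 to 8571 in leave-one-out fits, and between organs for 8190 genes, with 3880 to 7924. Fewer libraries entered the leave-one-out fits, and other causes were not tested. In roots the few counts of GNC and CGA1 limit what can be seen.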
